A study of Sparassis latifolia with 12 samples.

Results

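Fruiting bodies of the cauliflower mushroom Sparassis latifolia after 16 days of cold storage (group C) were compared with fruiting bodies after 8 days (group B), which asks how much the transcriptome moved in the middle of storage. The libraries were chosen by their labels, 3 of day 16 and 3 of day 8, and make up 6 of the 12 libraries of the series. All 12 came from the strain Minxiu No.1, packed in oriented polypropylene (OPP) film and kept at 4 ℃, and groups A and D held fresh mushrooms (day 0) and mushrooms stored for 24 days. No other treatment or genotype was compared. The sources used here do not say whether the 3 replicates of a day were separate fruiting bodies. The p-values thus describe only how these libraries spread, which may be technical in part.

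A harvested fruiting body stays metabolically active: it respires, consumes its reserves, and in a closed film can turn to fermentation as oxygen falls. The RNA held coding transcripts (mRNAs) and long non-coding RNAs (lncRNAs), transcripts without an evident protein product, some of which influence the expression of neighbouring or distant genes. Ergosterol is the main sterol of fungal membranes, and ethanol fermentation turns pyruvate into acetaldehyde and then into ethanol.

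Levels are given as FPKM, the number of sequenced fragments relative to transcript length and to the mapped reads of the library, divided here by a scaling factor per library ("scaled FPKM"; factors 0.983 to 1.02). The tables hold 13103 mRNAs and 1003 lncRNAs. Of these, 10962 mRNAs and 1002 lncRNAs reached an FPKM of 1 in at least 3 of the 12 libraries and were tested, while 2141 mRNAs and 1 lncRNA were not. A mean FPKM of at least 10 over the 6 libraries was found for 7895 tested mRNAs and 699 lncRNAs, and the bounds below are for these. Bulk RNA does not tell fewer cells of a kind from less RNA per cell.

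The numbers of detected transcripts and the median levels were close between the days. mRNAs above 0 numbered 11013.7 ± 53.3 on day 16 and 11023.7 ± 28.1 on day 8 (SD, n = 3 each, exact permutation p = 1). lncRNAs above 0 numbered 853 ± 28.6 on day 16 and 843 ± 15.6 on day 8 (exact permutation p = 0.6). The median FPKM of mRNAs was 16.6 ± 0.253 on day 16 and 16.3 ± 0.295 on day 8 (exact permutation p = 0.3), and that of lncRNAs 31.6 ± 2.28 on day 16 and 31.3 ± 2.35 on day 8 (exact permutation p = 1). These two-sided tests cannot go below 0.1 with 3 against 3 libraries, and all 4 adjusted values were 1. The files hold no read counts, so the depth behind a single value is unknown. In the read statistics of the study, each day 8 library had a lower share of uniquely mapped reads than each day 16 library, and this difference and the day cannot be told apart.

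Day 8 replicate 3 stood apart from the other libraries. Over the mRNAs with a mean FPKM of at least 10, the median absolute difference on the log2(scaled FPKM + 1) scale was 0.44 and 0.45 between this library and the other day 8 libraries, against 0.18 between day 8 replicates 1 and 2. Pairs of day 16 libraries differed by 0.17 to 0.25. Day 16 libraries lay 0.22 to 0.31 from day 8 replicates 1 and 2 and 0.35 to 0.38 from day 8 replicate 3, so this library was nearer to each day 16 library than to its own day. For lncRNAs the values were 0.59 and 0.64 between day 8 replicate 3 and its own day, 0.29 between day 8 replicates 1 and 2, 0.31 to 0.38 within day 16, and 0.48 to 0.49 between day 16 libraries and day 8 replicate 3. At least a 2-fold difference from day 8 replicates 1 and 2 was seen for 16.3% and 18.0% of the mRNAs in day 8 replicate 3, against 1.42% to 3.99% between day 16 libraries. Its mRNA FPKM summed to 885589, above the 666845 to 792488 of the other 5 libraries. Therefore, results below are given with and without this library where it changes them.

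**Figure D1:**
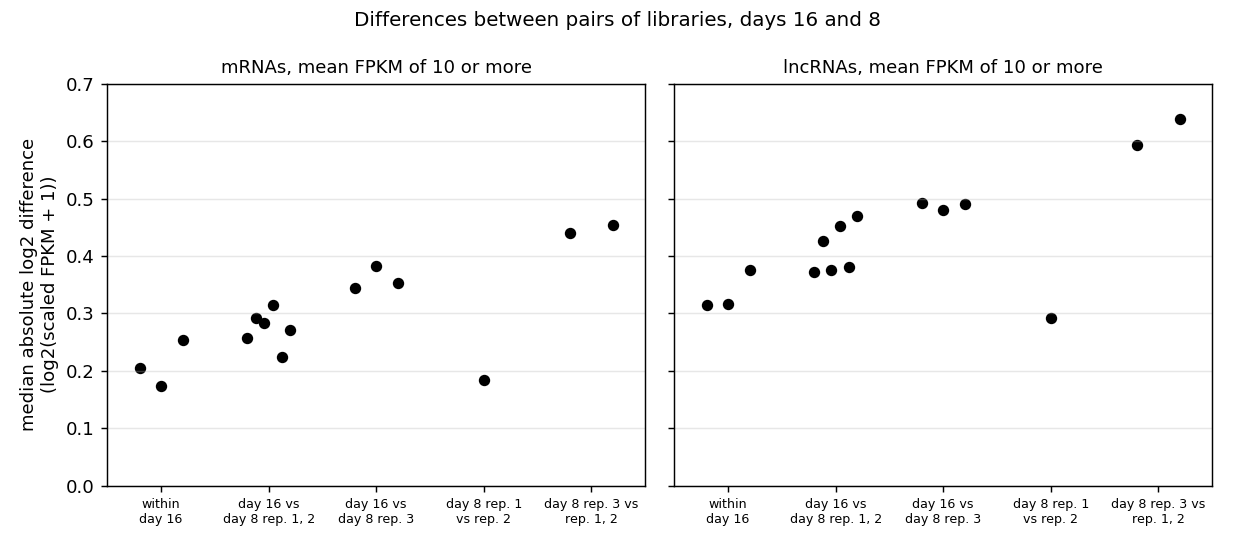
Median absolute difference between pairs of libraries on the log2(scaled FPKM + 1) scale (vertical axis), for 7895 mRNAs (left) and 699 lncRNAs (right); each point is 1 pair, and pairs are grouped along the horizontal axis. The pairs of day 8 replicate 3 with its own day (0.44 and 0.45 for mRNAs, 0.59 and 0.64 for lncRNAs) lie above all other pairs.

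The same library set the spread of day 8. The median SD per mRNA on the log2 scale was 0.18 on day 16 and 0.30 on day 8, but 0.13 between day 8 replicates 1 and 2 alone. For lncRNAs it was 0.28 on day 16, 0.45 on day 8 and 0.21 without replicate 3. The values without replicate 3 rest on 2 libraries and the others on 3, so they are not directly comparable. The SD was larger on day 8 for 71.1% of these mRNAs and 68.7% of the lncRNAs. Day 8 replicate 3 was nearer to the mean of a pair of day 16 libraries than to the mean of the other day 8 libraries for 63.6% of mRNAs and 60.0% of lncRNAs. For the other 5 libraries, the share of mRNAs nearer to the other day was 33.6% to 52.2%. For day 8 replicates 1 and 2 (52.2% and 49.1%), the mean of their own day included replicate 3.

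No mRNA passed the test between the 2 days. A transcript was called where the moderated test of limma gave an adjusted p under 0.05 and the change was at least 2-fold; 0 of 10962 mRNAs (0%) met this, and the smallest adjusted p was 0.161. At an unadjusted p under 0.05 there were 537 mRNAs, 4.9% of those tested, which is near the share of 0.05 that unchanged transcripts would give. This held only for the fit of all libraries. Of the same 10962 mRNAs, 722 were under 0.05 in limma when only days 16 and 8 were fitted. Without day 8 replicate 3 they were 1228, and with both changes 2104. Called mRNAs numbered 1 after quantile normalization and without day 0 replicate 1, and 28 without day 8 replicate 3. They numbered 4 when that library and days 0 and 24 were all left out, and 0 under the other 17 alternatives. Among lncRNAs, 4 of 1002 (0.399%) were called, 3 higher and 1 lower on day 16, and 71 (7.09%) had an unadjusted p under 0.05.

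A missed threshold does not show that a transcript stayed the same, so the size of change that the data allow was bounded. A transcript was counted as bounded within 2-fold where both a 2-fold rise and a 2-fold fall were refused by one-sided moderated limma tests (adjusted p under 0.05 over all transcripts of the class). By this test 8545 of all tested mRNAs (78%) and 137 of all tested lncRNAs (13.7%) were bounded. Among those with a mean FPKM of at least 10 they were 6162 of 7895 mRNAs (78.0%) and 136 of 699 lncRNAs (19.5%). The 95% interval of the change lay wholly inside 2-fold for 5758 of these mRNAs (72.9%) and inside 4-fold for 7577 (96.0%). For the lncRNAs it lay inside 2-fold for 291 (41.6%) and inside 4-fold for 612 (87.6%).

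The mRNA count of the adjusted bound changed little with the library set, and the lncRNA count did not hold. Without day 8 replicate 3, 5624 mRNAs (71.2%) of mean FPKM 10 or more were bounded, and leaving out any other library gave 5262 to 6574. The lncRNA count was 0 without any 1 of the 6 libraries of days 16 and 8 or without day 24 replicate 2, and 39 without day 24 replicate 1. At the narrower margin of 1.5-fold, 0 mRNAs and 0 lncRNAs were bounded, but 1215 mRNAs were once no low-value filter was applied. Fitting only days 16 and 8 gave 33 mRNAs and 16 lncRNAs at that margin, and 1558 mRNAs and 32 lncRNAs without day 8 replicate 3, so no count at 1.5-fold is stable.

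The estimated changes were small for most transcripts. The median absolute log2 change was 0.18 for the 7895 mRNAs, 90% lay under 0.53 and 99% under 1.32, and the median standard error (SE) of 0.25 was larger than the median change. For the 699 lncRNAs the median was 0.27, with 90% under 0.87, 99% under 2.49 and a median SE of 0.37. An estimate of at least 2-fold was reached by 174 mRNAs and 58 lncRNAs. The farther end of the 95% interval had a median of 0.74 for mRNAs, a 1.68-fold change, and of 1.08 for lncRNAs, a 2.11-fold change. With day 8 replicate 3 left out, 385 mRNAs and 92 lncRNAs reached 2-fold. The median absolute change was then 0.23 for mRNAs (90% under 0.71, 99% under 1.81). For lncRNAs it was 0.35 (90% under 1.09, 99% under 2.95). The median SE, 0.24 and 0.37, was still larger than these medians. When only days 16 and 8 were fitted without that library, the median SE was smaller than the median change, at 0.16 and 0.27.

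The bounds varied with the level. Of mRNAs with a mean FPKM of 10 to 30, 80.2% were bounded within 2-fold, of those at 30 to 100, 82.0%, of those at 100 to 1000, 64.2%, and of the 58 at 1000 or more, 10 (17.2%). These most abundant mRNAs had a median SE of 0.59. Among lncRNAs the share was 2.92% at 10 to 30, 18.3% at 30 to 100 and 32.8% at 100 to 1000, with 5 of the 30 at 1000 or more. The share bounded was thus lowest for the most abundant mRNAs and, among lncRNAs of mean FPKM 10 or more, for those at 10 to 30, while the median SE of lncRNAs was 0.51 at 1000 or more and 0.46 at 10 to 30.

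**Figure D2:**
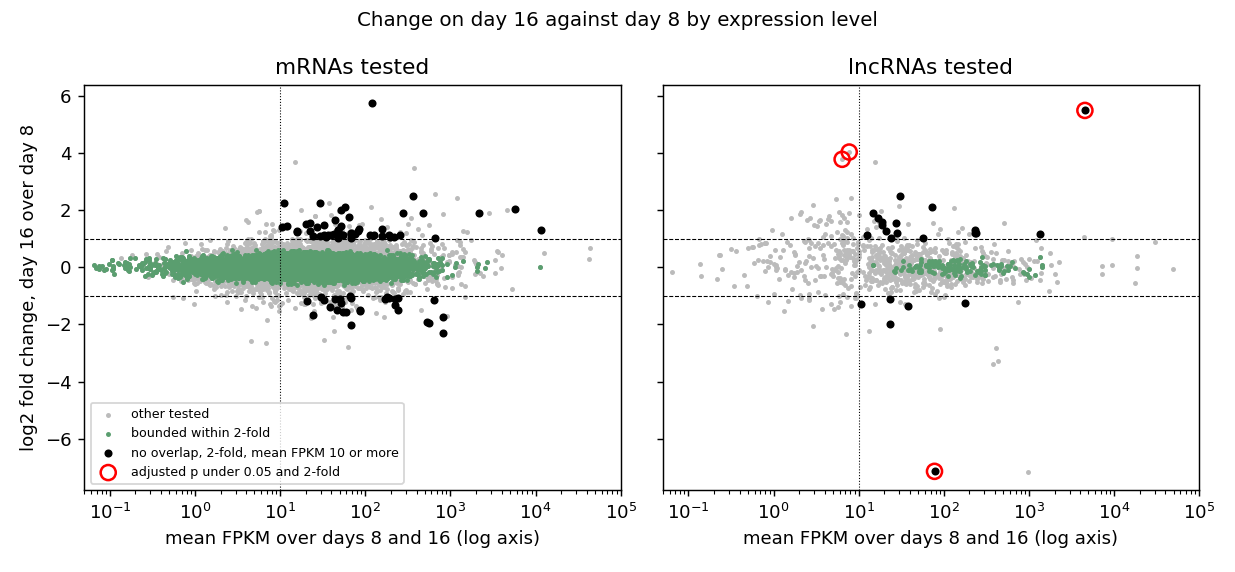
Log2 change of day 16 over day 8 (vertical axis) against mean FPKM over both days (horizontal log axis) for the tested mRNAs (left) and lncRNAs (right); dashed lines mark 2-fold and the dotted line a mean FPKM of 10. The bounded transcripts (green) fill the band inside 2-fold, and the 4 called lncRNAs (red circles) lie far outside it.

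The neighbouring intervals of storage allowed fewer such bounds. The share of the 7895 mRNAs bounded within 2-fold was 27.0% for day 8 against day 0 (2956 of all 10962 tested, 27%) and 36.0% for day 24 against day 16 (3948 of all tested, 36%), with median absolute log2 changes of 0.69 and 0.54. Each interval shares 3 libraries with day 16 against day 8, and the difference between intervals was not tested.

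EVM0000258 had the narrowest interval of the mRNAs and a nearly even level in the 6 libraries. Its scaled FPKM was 57.2, 57.4 and 57.8 on day 16 and 54.1, 54.9 and 53.7 on day 8, a log2 change of 0.08 (SE 0.13, 95% interval -0.20 to 0.36). The groups did not overlap, yet the interval lay inside 1.5-fold. This mRNA differed on the other days, at 18.8 to 20.7 on day 0 and 21.5 to 24.1 on day 24. Among lncRNAs XLOC_008068 had the narrowest interval, with 143, 124 and 136 on day 16 and 184, 180.1 and 165 on day 8, a log2 change of -0.39 (SE 0.18, interval -0.79 to 0.01).

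The most abundant mRNAs were among those that could not be bounded. EVM0006046 had 57431, 61273 and 39465 scaled FPKM on day 16 and 20444, 41469 and 41166 on day 8, a log2 change of 0.66 (interval -0.87 to 2.20). The groups overlapped in range, since the lowest day 16 value lay below the day 8 values of replicates 2 and 3. On day 0 it had 382 to 1346 and on day 24 666 to 1044, so this mRNA stood high on both days 8 and 16 only. EVM0012259 had 44277, 56708 and 34843 on day 16 and 21628, 53642 and 42338 on day 8 (log2 change 0.28, SE 2.93, interval -6.14 to 6.70). It was listed at 0 in 2 day 0 libraries and 1 day 24 library, and at 1634 in day 0 replicate 2. This spread on days 0 and 24 enters its SE and interval. EVM0009098 had 10960.0, 15893 and 16833 on day 16 and 11129, 7089 and 13198 on day 8 (log2 change 0.50, interval -1.58 to 2.57). Its day 0 values of 407, 6013 and 746 enter that interval as well. The files name no product for these 3.

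The most abundant lncRNAs gave a similar picture. XLOC_009279 had 52529, 36658 and 55943 scaled FPKM on day 16 and 36866, 52902 and 63011 on day 8 (log2 change -0.06, interval -1.67 to 1.55). XLOC_007146 had 19340.1, 13204 and 23037 on day 16 and 19751, 24529.9 and 12537 on day 8 (log2 change -0.02, interval -1.23 to 1.20). In both, the days overlapped. XLOC_013075 did not overlap, with 42289.8, 36168 and 34926 on day 16 and 12261, 21296 and 33665 on day 8, but its change of 0.87 was not called (SE 0.61, limma adjusted p = 0.825). It is another transcript that was low on the outer days, with 686 to 3504 on day 0 and 1761 to 2418 on day 24.

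Of the 4 called lncRNAs, XLOC_006755 had the highest level. Its scaled FPKM was 8493, 8316 and 9416 on day 16 and 889, 29.2 and 276 on day 8. All day 16 values exceeded all day 8 values, and the log2 change was 5.48 (SE 0.89, interval 3.55 to 7.41, limma adjusted p = 0.0138). On day 0 it had 4531 to 7705 and on day 24 4875 to 10437, so that day 8 alone was low, and its replicates lay far from each other. The call was lost when only days 16 and 8 were fitted (adjusted p = 0.705), also with day 8 replicate 3 out, and without day 16 replicate 1, 2 or 3 (0.0754, 0.0757 and 0.0539), and over all alternatives the adjusted p was 0.000958 to 0.705.

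XLOC_012387 was listed at 0 in all 3 day 16 libraries, against 110.5, 251 and 99.2 scaled FPKM on day 8. It was measured at 65.5 to 131 on day 0 and 39.2 to 51.0 on day 24, so day 16 alone lacked a value. It was called lower on day 16 (limma adjusted p = 2.96e-07) and remained called under all 21 alternatives (highest adjusted p 0.0297). XLOC_000109 showed the opposite pattern, with 14.1, 15.0 and 9.51 on day 16 and 0 listed in all 3 libraries of day 8 and of day 0. On day 24 it reached 84.2 to 112. It was called higher (limma adjusted p = 0.000495), also under all alternatives. For both lncRNAs the alternatives started from the same listed 0s, so they did not check those values. Days listed at 0 in all 3 libraries also added no spread to the SE. XLOC_000570 had 16.0, 19.3 and 11.5 on day 16 and was listed at 0 in all 3 day 8 libraries (adjusted p = 0.0215). It had 8.07, 7.44 and 0 on day 0 and 97.2 to 125 on day 24, and its call was lost after quantile normalization and without any 1 of day 8 replicates 1 and 2, the day 16 libraries and day 24 replicates 1 and 3, with adjusted p up to 0.144.

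An exact 0 in these files need not be a level near 0. Of the 699 lncRNAs with a mean FPKM of at least 10, 20 were listed at 0 in at least 1 of the 6 libraries, as were 21 of the 7897 mRNAs at this level. In 16 lncRNAs and 20 mRNAs, a library held 0 while both other replicates of its day held an FPKM of at least 10. XLOC_007478, singled out after its values were seen, had the most extreme fitted log2 change of all lncRNAs, -7.16 (SE 3.02), with overlapping replicates and an adjusted p of 0.679. Since 3 of the 4 calls set a listed 0 in all libraries of a day against measured values, no fold change is given for them.

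**Figure D3:**
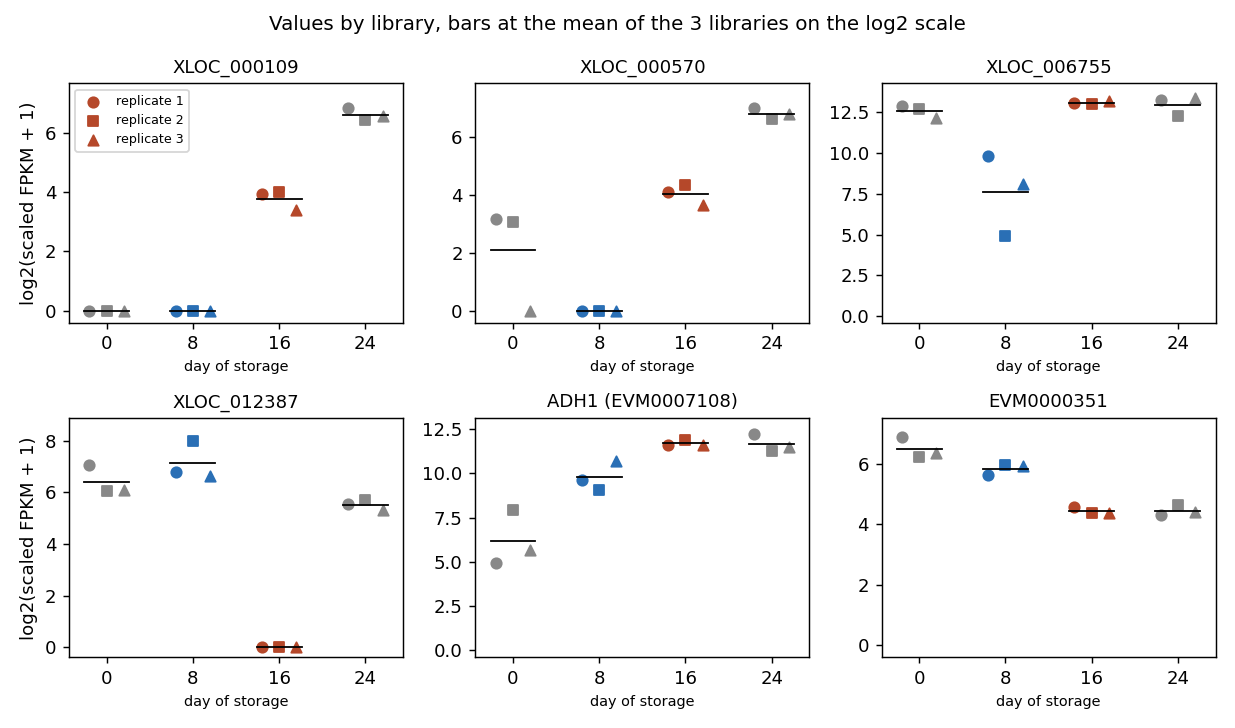
log2(scaled FPKM + 1) in each library (vertical axis) by day of storage for the 4 called lncRNAs, ADH1 and EVM0000351; symbols are replicates and bars the means of 3. XLOC_006755 is low on day 8 alone and XLOC_012387 is at 0 on day 16 alone, while XLOC_000109 and XLOC_000570 stand between day 8 and day 24.

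Few transcripts were present on one day only. Above 0 in all 3 day 16 libraries and 0 in all 3 day 8 libraries were 2 mRNAs, EVM0001018 and EVM0010886, both under 0.2 scaled FPKM, and the lncRNAs XLOC_000109 and XLOC_000570. The reverse held for 4 mRNAs and for XLOC_012387. EVM0006288 was the highest of these mRNAs, listed at 0 on day 16 against 0.774, 1.73 and 0.774 on day 8. Above 0 in all 6 libraries were 10801 mRNAs and 754 lncRNAs, and 1860 mRNAs and 88 lncRNAs were at 0 in all 6. These IDs were named after their values were seen.

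Non-overlapping replicates were counted as a description with no test. All day 16 values lay above or all below the day 8 values in 1273 of the tested mRNAs (11.6%) and 115 of the tested lncRNAs (11.5%). With 3 against 3 libraries, a share of 0.1 of all orderings separates fully. With every library in, these counts are thus near what unchanged transcripts would give, though the shares without day 8 replicate 3 were higher (below). With a change of at least 2-fold as well, 94 mRNAs (0.858%) and 37 lncRNAs (3.69%) were left. Among those with a mean FPKM of at least 10, 976 mRNAs did not overlap (532 higher, 444 lower on day 16), and 79 of them changed at least 2-fold, 51 upward and 28 downward. The direction of the 976 depended on the scaling, with 586 higher and 277 lower by factors from the lncRNAs and 474 higher and 517 lower without scaling. Of the 79, 68 had an unadjusted p under 0.05, and adjusted p in limma was 0.161 to 1. For lncRNAs 94 did not overlap (47 each way), and 23 of them reached 2-fold, 17 upward and 6 downward.

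EVM0011285 had the largest upward estimate of the non-overlapping mRNAs. It had 199, 278 and 175 scaled FPKM on day 16 and was listed at 0, 0 and 64.8 on day 8 (limma adjusted p = 0.808). It was called when day 8 replicate 3 and days 0 and 24 were all left out (adjusted p = 0.00776). EVM0003720 came next, with 290.4, 1076 and 467 on day 16 and 56.0, 52.5 and 263 on day 8, a log2 change of 2.50 (SE 0.62, interval 1.14 to 3.87, limma adjusted p = 0.709). Its day 8 replicate 3 was close to the lowest day 16 value, and without that library the change was 3.26 (adjusted p = 0.0331, or 0.111 when days 0 and 24 were left out too). EVM0003720 had 19.2 to 24.8 on day 0 and 1024 to 2332 on day 24, so its means increased over the 4 days.

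The strongest downward estimates ran the other way across storage. EVM0007431 had 355, 324 and 117 scaled FPKM on day 16 and 635, 2317 and 1115 on day 8, a log2 change of -2.30 (SE 0.58, interval -3.58 to -1.03, limma adjusted p = 0.709). It had 5336 to 10651 on day 0 and 87.3 to 235 on day 24. EVM0011786 had 22.3, 39.0 and 12.4 on day 16 and 51.5, 203 and 78.9 on day 8 (log2 change -2.03, SE 0.60, limma adjusted p = 0.808), with 123 to 600.5 on day 0 and 6.11 to 8.27 on day 24. Both had lower means on each later day.

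Outside the called lncRNAs, XLOC_007005 had the largest upward estimate without overlap. Its scaled FPKM was 58.6, 50.7 and 39.7 on day 16 and 5.03, 25.3 and 3.51 on day 8 (log2 change 2.48, SE 1.06, limma adjusted p = 0.679). XLOC_013662 had 87.1, 200.4 and 60.3 on day 16 and 35.2, 8.30 and 40.9 on day 8 (2.09, SE 1.41, limma adjusted p = 0.825). Downward, XLOC_012409 had 17.9, 19.0 and 19.7 on day 16 and 96.4, 28.4 and 43.8 on day 8 (-1.35, SE 0.84, limma adjusted p = 0.809). XLOC_012696 had 0, 21.1 and 22.6 on day 16 and 34.8, 23.2 and 37.8 on day 8 (limma adjusted p = 0.871). These 4 separated by replicate, but none passed the test after adjustment. The interval of XLOC_007005, which is not adjusted for the number of transcripts, lay wholly above 0 (0.17 to 4.80). The intervals of XLOC_013662, XLOC_012409 and XLOC_012696 included 0.

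Leaving out day 8 replicate 3 changed the mRNA result. Without it 28 mRNAs (0.255% of those tested) were called, 26 higher and 2 lower on day 16, 23 of them with a mean FPKM of at least 10. The number of lncRNAs was 11 (1.1%), 9 higher and 2 lower, among them all 4 called with every library. When days 0 and 24 were left out too, 27 of the 28 mRNAs were no longer called and EVM0007407 remained, with adjusted p of 0.0334 to 0.114 over the 28, and 8 of the 11 lncRNAs were no longer called. These calls thus depended on whether days 0 and 24 entered the fit. The count at an unadjusted limma p under 0.05 was 1228 of 10962 mRNAs and 112 of 1002 lncRNAs, against 537 and 71 with every library. It was 2104 mRNAs and 142 lncRNAs when days 0 and 24 were left out too. Leaving out any other single library gave 0 or 1 called mRNA and 2 to 5 called lncRNAs. The non-overlapping transcripts of at least 2-fold and mean FPKM of at least 10 numbered 331 mRNAs (4.19%, 237 upward, 94 downward) and 74 lncRNAs (10.6%, 59 upward, 15 downward). A group of 2 separates more readily than a group of 3. Without day 8 replicate 1 or day 16 replicate 2 or 3 the mRNAs numbered 121 (1.53%), 124 (1.57%) and 149 (1.89%). Without day 16 replicate 3 the lncRNAs numbered 39 (5.58%). Without day 8 replicate 3, 3255 mRNAs (41.2%) and 276 lncRNAs (39.5%) of this level did not overlap at any size of change. Without 1 other library of days 16 and 8, the shares were 17.1% to 22.4% of mRNAs and 20.2% to 23.7% of lncRNAs. The reason for this difference was not tested.

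These 28 mRNAs were selected with day 8 replicate 3 out, by how far day 8 replicates 1 and 2 lay from day 16. A library left out of such a choice tends to lie nearer to day 16 than those used for it. Its position is thus only described. On a scale where 0 is the mean of day 8 replicates 1 and 2 and 1 is the day 16 mean, day 8 replicate 3 had a median position of 1.11 (range -0.099 to 1.80). It was nearer to day 16 in 25 of the 28, within the day 16 range in 6, and at or beyond the day 16 mean in 18. The median log2 change of the 28 was 1.73 without the library and 1.16 with it, and with it the adjusted p was 0.161 to 1. For the 11 lncRNAs the median position was 1.04, and day 8 replicate 3 was nearer to day 16 in 7.

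EVM0009475 had the largest change of these mRNAs. Its scaled FPKM was 979, 183 and 604 on day 16 and 22.9, 6.18 and 483 on day 8. Day 8 replicate 3 fell within the day 16 range, so the log2 change was 5.19 without it (SE 0.64, limma adjusted p = 0.0128) and 3.45 with it (adjusted p = 0.829). EVM0001930 had 1246, 2044 and 1642 on day 16 and 226, 59.8 and 1979 on day 8, a change of 3.78 without the library (SE 0.61, limma adjusted p = 0.0386) and 2.42 with it (adjusted p = 1). Neither was called without the library when only days 16 and 8 were fitted (limma adjusted p = 0.111 and 0.109). Both were lower on day 0, at 0.822 to 1.21 and 32.0 to 67.1, and higher on day 24, at 1257 to 1955 and 3405 to 9171.

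The 2 mRNAs called lower differed in how day 8 replicate 3 behaved. EVM0004068 had 32.1, 36.5 and 38.7 scaled FPKM on day 16 and 123, 202 and 38.6 on day 8, so this library stood at the day 16 level (log2 change -2.11 without it, SE 0.31, limma adjusted p = 0.0317, and -1.45 with it). EVM0000351 had 22.6, 19.8 and 19.9 on day 16 and 48.2, 61.6 and 59.9 on day 8, so here all 3 day 8 libraries were alike. Its log2 change was -1.40 (SE 0.19, interval -1.82 to -0.97) with all libraries, at the smallest unadjusted p of the mRNAs in limma (1.47e-05, adjusted p = 0.161). It was called without day 8 replicate 3 (adjusted p = 0.0372), after quantile normalization (0.0346) and without day 0 replicate 1 (0.0456), but not under the other 18 alternatives, among them the fit of only days 16 and 8 (0.680) and that fit without day 8 replicate 3 (0.0792, the same as for EVM0004068). EVM0000351 had 74.1 to 117 on day 0 and 18.7 to 24.1 on day 24, so its day 16 values were at the day 24 level.

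Of the lncRNAs called only without that library, XLOC_007917 had 257, 429 and 342 scaled FPKM on day 16 and 1445, 1788 and 181 on day 8 (log2 change -2.26, SE 0.37, limma adjusted p = 0.0176, against -1.21 and 0.777 with it). XLOC_002852 had 14.1, 13.5 and 13.0 on day 16 and 2.56, 0 and 17.9 on day 8 (2.94, SE 0.57, limma adjusted p = 0.0353, against 1.84 and 0.682 with it). In both, day 8 replicate 3 lay on the far side of the day 16 values, and neither was called without it when only days 16 and 8 were fitted (limma adjusted p = 0.151 and 0.228).

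The days at the ends of storage share no library with days 16 and 8, so transcripts that differed between them were followed here. Called in the same limma fit for day 24 against day 0 were 730 mRNAs higher (6.66%) and 745 lower (6.8%), and 56 lncRNAs higher (5.59%) and 47 lower (4.69%). Of the 730, 652 (89.3%) had a higher mean on day 16 than on day 8, against 50.8% of all mRNAs tested. Their median log2 change of day 16 over day 8 was 0.36, against 0.01 over all. Of the 745, 189 (25.4%) had a higher mean on day 16, and the median change was -0.22. No member of either list was called between days 16 and 8, and 371 (50.8%) of the 730 and 432 (58.0%) of the 745 were bounded within 2-fold, against 78.0% of all mRNAs tested.

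The lncRNA lists moved in the same directions. Of the 56 higher on day 24, 47 (83.9%) had a higher mean on day 16, with a median change of 0.47, and 2 were called. Of the 47 lower, 15 (31.9%) had a higher mean on day 16, with a median of -0.29 (-0.16 without day 16 replicate 1). Over all lncRNAs tested the share was 49.0% and the median 0. The members of a list are not independent, and no test of the lists was made.

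Day 8 replicate 3 went against its day in 3 of these 4 lists. For the 730 mRNAs, the median log2 value relative to the mean of the 6 libraries was 0.22, 0.11 and 0.20 on day 16 and -0.36, -0.46 and 0.29 on day 8, so that replicate 3 was the highest of all 6. For the 745 mRNAs it was -0.20, -0.0041 and -0.10 on day 16 and 0.22, 0.23 and -0.18 on day 8. Without this library the medians of the change were 0.58 and -0.35. They were 0.20 and -0.14 without day 8 replicate 2, 0.27 and -0.14 without day 8 replicate 1, and 0.34 to 0.39 and -0.26 to -0.15 without a day 16 library, so the sign held and the size did not. The list of 56 lncRNAs had 0.39, 0.14 and 0.14 on day 16 and -0.31, -0.54 and 0.26 on day 8. The list of 47 lncRNAs had -0.18, -0.03 and -0.20 on day 16 and 0.16, 0.12 and 0 on day 8, so here replicate 3 was the lowest of its day but did not cross to the other.

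**Figure D4:**
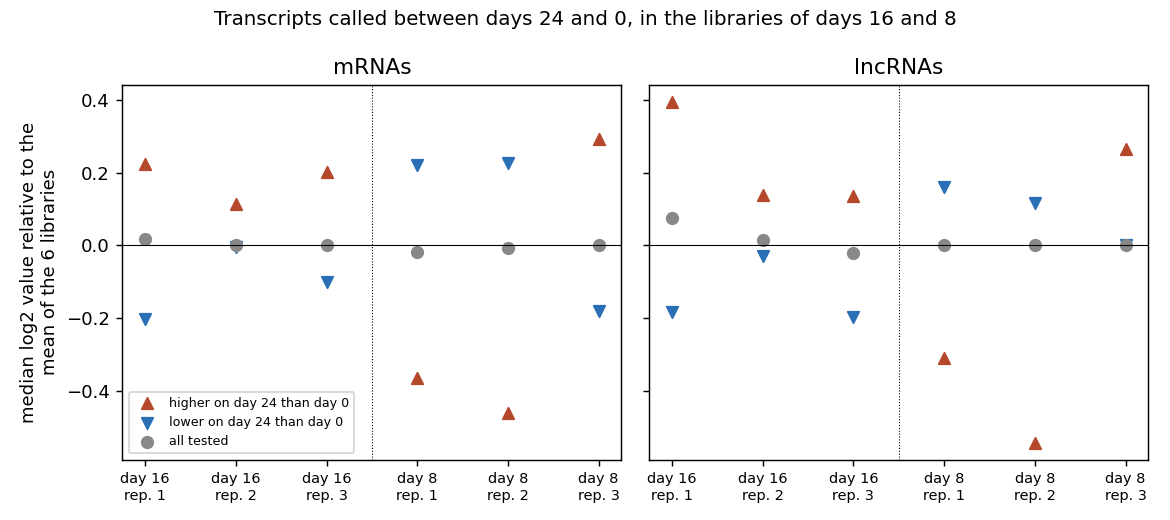
Median log2 value relative to the mean of the 6 libraries (vertical axis) in each library of days 16 and 8, for transcripts called higher or lower on day 24 than on day 0 and for all tested, with mRNAs on the left and lncRNAs on the right. In day 8 replicate 3 the mRNA list higher on day 24 is at 0.29 and the lower list at -0.18, opposite in sign to day 8 replicates 1 and 2.

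The study's own genes of interest were examined next. Their lists had been chosen on comparisons of the same libraries with fresh mushrooms, so they are described and not used as evidence of a direction. Of the 5 energy and fermentation mRNAs, 0 were called, 4 had a change above 0, 1 was bounded within 2-fold, and the median log2 change was 0.32. Of the 6 ergosterol mRNAs, 0 were called, 5 had a change below 0, 2 were bounded, and the median was -0.31, with a range of -0.42 to 0.01. Of the 2 antioxidant mRNAs, 0 were called and 0 bounded. For comparison, of all mRNAs tested 0% were called, 50.8% had a change above 0 and 78.0% were bounded, with a median of 0.01. Without day 8 replicate 3, 0 of the 13 mRNAs of these lists were called as well, against 0.255% of all mRNAs tested.

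ADH1 (EVM0007108), the alcohol dehydrogenase that reduces acetaldehyde to ethanol, had the largest change of these mRNAs. Its scaled FPKM was 3116, 3743 and 3109 on day 16 and 788, 527 and 1642 on day 8. The groups did not overlap, and the log2 change was 1.91 (SE 0.69, interval 0.41 to 3.41), which did not pass the test (limma adjusted p = 0.886). Without day 8 replicate 3 it was 2.36 (adjusted p = 0.231). ADH1 had 29.1 to 247 on day 0 and 2436 to 4841 on day 24.

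The other fermentation enzyme, the pyruvate decarboxylase PDC (EVM0009327), which forms acetaldehyde from pyruvate, did not follow ADH1. It had 803, 417 and 884 on day 16 and 1002, 710.5 and 561 on day 8, a log2 change of -0.15 (interval -1.09 to 0.80) that was bounded within 2-fold (limma adjusted p of the bound 0.0461). PK (EVM0009831), the pyruvate kinase of the last step of glycolysis, had 4779, 2498 and 3908 on day 16 and 3147, 2931 and 2939 on day 8, a log2 change of 0.26 (interval -0.74 to 1.26). The days overlapped in both, and the difference between ADH1 and PDC was not tested.

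FDH (EVM0012176), a formate dehydrogenase, had 491, 698 and 652 on day 16 and 377, 159 and 1152 on day 8, a log2 change of 0.56 (interval -0.98 to 2.11). Here day 8 replicate 3 was the highest of the 6, and the change was 1.31 without it (limma adjusted p = 0.496). GPDH (EVM0008918) had 66.4, 43.0 and 55.3 on day 16 and 32.3, 28.7 and 85.3 on day 8, a change of 0.32 with the library and 0.81 without it. CAT (EVM0011998), the catalase that breaks down hydrogen peroxide, had 45.0, 46.6 and 65.7 on day 16 and 39.1, 31.5 and 201 on day 8. Its log2 change was -0.28 (interval -1.69 to 1.12) and 0.54 without day 8 replicate 3, so 1 library set its sign. GST2 (EVM0000573), a glutathione S-transferase, had 17.0, 38.4 and 21.1 on day 16 and 17.7, 23.8 and 21.5 on day 8 (log2 change 0.19, interval -0.87 to 1.25).

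All 6 ergosterol mRNAs had lower means on both days than on day 0. ERG25 (EVM0000111), in yeast a sterol methyl oxidase, had 59.7, 63.7 and 67.3 on day 16 and 67.4, 71.3 and 74.7 on day 8, and 231 to 662 on day 0. Its replicates did not overlap by a narrow margin, and the log2 change of -0.16 (interval -0.89 to 0.57) was bounded within 2-fold (limma adjusted p of the bound 0.0214). EVM0000659 had 60.6, 60.4 and 62.3 on day 16 and 60.2, 73.3 and 50.9 on day 8 (0.01, interval -0.77 to 0.78, adjusted p of the bound 0.0146). The other 4 overlapped between the days and were not bounded. In all 6, bounded or not, day 0 replicate 2 lay below the other day 0 libraries. It had 70.9 against 355 and 440 in ERG13, and 231 against 662 and 614 in ERG25. The spread of day 0 enters the intervals of all 6.

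Of those not bounded, ERG13 (EVM0005394), in yeast the HMG-CoA synthase near the start of the pathway, had 39.6, 39.4 and 57.0 on day 16 and 47.7, 57.5 and 75.7 on day 8 (log2 change -0.40, interval -1.59 to 0.79). ERG3 (EVM0012147), in yeast a sterol desaturase, had 14.6, 19.7 and 14.9 on day 16 and 21.4, 16.3 and 23.0 on day 8 (-0.29, interval -1.21 to 0.64). ERG4 (EVM0003490), in yeast the sterol reductase of the last step, had 19.4, 17.2 and 19.6 on day 16 and 29.9, 32.5 and 16.7 on day 8 (-0.42, interval -1.41 to 0.57). In ERG4 day 8 replicate 3 lay below all day 16 values, and the change was -0.71 without it. EVM0004880 had a change of -0.33 (interval -1.36 to 0.70).

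**Figure D5:**
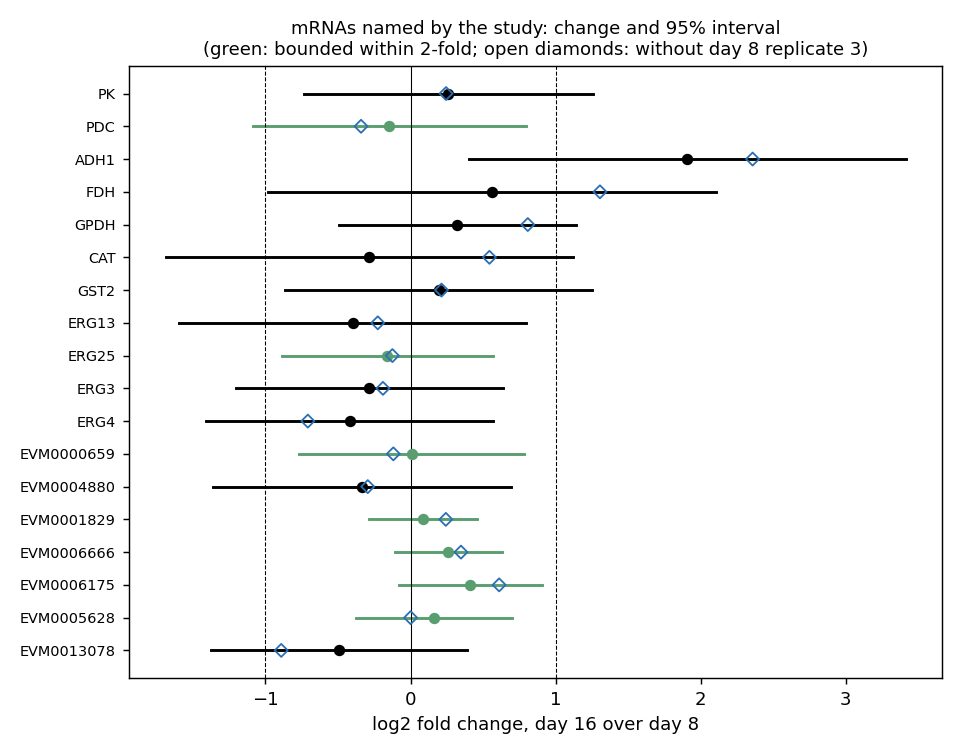
Log2 change of day 16 over day 8 with its 95% interval from limma (horizontal axis) for the 13 energy, antioxidant and ergosterol mRNAs and the 5 further mRNAs of the RT-qPCR list; dashed lines mark 2-fold, green marks those bounded within 2-fold and open diamonds the change without day 8 replicate 3. Only the interval of ADH1 lies wholly above 0, and FDH, GPDH and CAT are among those whose estimate moves upward without that library.

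A further 5 mRNAs had been picked for RT-qPCR, and by FPKM 4 of these were bounded within 2-fold and 0 were called. Of all mRNAs tested, 78.0% were bounded. EVM0001829 had 107, 101 and 109 on day 16 and 97.2, 82.0 and 124 on day 8, a log2 change of 0.09 (interval -0.29 to 0.46). EVM0006666 had 148, 126 and 147 on day 16 and 115, 104 and 131 on day 8 (0.26, interval -0.11 to 0.63). EVM0005628 had 51.6, 44.2 and 48.1 on day 16 and 49.8, 46.0 and 34.0 on day 8 (0.16, interval -0.37 to 0.70). All 3 overlapped and had intervals inside 2-fold. EVM0006175 was bounded too, with a change of 0.41 (interval -0.08 to 0.91). EVM0013078 was not, with 17.1, 29.8 and 21.5 on day 16 and 26.6, 66.2 and 17.8 on day 8 (-0.49, interval -1.37 to 0.39).

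Of the 6 lncRNAs picked for RT-qPCR, 0 were called, 2 were bounded, and 3 had replicates that did not overlap. Over all lncRNAs tested, 13.7% were bounded and 11.5% did not overlap. XLOC_002934 had 2.13, 3.79 and 0 scaled FPKM on day 16 and 10.4, 19.0 and 7.24 on day 8 (log2 change -2.32, SE 0.59, limma adjusted p = 0.393). XLOC_003506 had 7.44, 9.11 and 2.12 on day 16 and 10.8, 13.8 and 21.0 on day 8 (-1.28, SE 0.52, limma adjusted p = 0.679). These lncRNAs were lower on day 16 in every library, at levels where few lncRNAs could be bounded, although most mRNAs at such levels were. XLOC_004061 had 1640.0, 1478 and 1388 on day 16 and 982, 1328 and 1264 on day 8, did not overlap, and yet was bounded (0.34, interval -0.14 to 0.82, limma adjusted p of the bound 0.0452).

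XLOC_011327 was bounded as well, with 476, 465 and 390.3 on day 16 and 405, 434 and 532 on day 8 (log2 change -0.04, interval -0.57 to 0.49). XLOC_002861, a predicted regulator of its neighbour FDH, had 10906, 12517 and 11503 on day 16 and 4302, 3461 and 14006 on day 8. As for FDH, day 8 replicate 3 was the highest of the 6 libraries, and the change of 0.97 (interval -0.33 to 2.27) was 1.59 without it. XLOC_008354 had 1264, 887 and 1356 on day 16 and 682, 492 and 2817 on day 8 (0.23, and 0.99 without that library).

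Predicted lncRNA partners of these mRNAs, as named in the study, were counted by group. Of the 18 predicted partners of the energy mRNAs, 0 were called, 2 were bounded and 14 had a change above 0, with a median of 0.29. Of the 33 partners of the ergosterol mRNAs, 0 were called, 3 were bounded and 13 were above 0 (median -0.09), and of the 15 partners of the antioxidant mRNAs 0 were called, 0 were bounded and 4 were above 0 (median -0.12). For comparison, 49.0% of all lncRNAs tested were above 0, 13.7% were bounded and 0.399% were called, and their median was 0. XLOC_009326, a predicted partner of ADH1, had 152, 168 and 156 on day 16 and 73.4, 76.9 and 151 on day 8 (log2 change 0.74, SE 0.41, limma adjusted p = 0.770), and was called only when day 8 replicate 3 and the other days were all left out (adjusted p = 0.0297).

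XLOC_003962 and XLOC_008798, named in the study for a drop early in storage and a rise late, overlapped between the days. XLOC_003962 had 42.9, 47.0 and 62.3 scaled FPKM on day 16 and 49.1, 19.1 and 73.2 on day 8 (log2 change 0.28, interval -0.62 to 1.18). Its levels were higher at both ends of storage, with 164 to 325 on day 0 and 442 to 612 on day 24. XLOC_008798 had 2.50, 0 and 3.85 on day 16 and 3.41, 1.95 and 2.22 on day 8 (-0.44, interval -1.73 to 0.86). Neither was bounded within 2-fold.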

How the data were processed

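RNA from fruiting bodies was depleted of ribosomal RNA and sequenced from libraries whose kit keeps the strand. Per the labels and the study's methods, the authors used cutadapt 2.7 for trimming, FastQC 0.11.8 for read quality, HISAT2 2.1.0 for alignment and StringTie 1.3.3b for transcript estimates. The deposited values are FPKM, normalized by the authors for transcript length and mapped reads. The study cites an S. latifolia assembly held at NCBI as the alignment reference. The sources used here do not say whether estimation used the strand; overlapping and antisense transcripts may share reads. No read counts were used, hence no count model, counting interval or detection limit. Each column was assigned to its day and replicate by name.

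FPKM was divided by median-of-ratios factors from the mRNAs. Transcripts with FPKM of at least 1 in at least 3 of the 12 libraries entered a limma fit (version 3.58.1, R 4.3.3) of log2(scaled FPKM + 1), with a mean-variance trend, day as a factor of 4 groups over all 12 libraries, and Benjamini-Hochberg adjustment per class. Log2 changes are on this scale, which understates changes of low transcripts. Bounds came from 2 one-sided moderated tests against a log2 change of 1 in either direction. Library totals were compared by two-sided exact permutation (scipy 1.17.1, Python 3.11.15). The procedure was tested on simulated data.

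Named transcripts were those called, the 2 highest and 2 lowest changes per class among non-overlapping transcripts and among those called without day 8 replicate 3 (mean FPKM of at least 10), the study's lists with partners called in any fit, the 3 most abundant per class and the narrowest interval per class. Members and lists were chosen with earlier results of these data known. IDs matched 0 entries of the reference table, so product names are those the study gives, and sequences were not used here. Replicate numbers did not pair the samples.

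Each result was recomputed with a 0.1 pseudocount, with every transcript kept, with a filter at mean FPKM 5, unscaled, quantile-normalized, with factors from lncRNAs, with only days 16 and 8 in the fit (with and without day 8 replicate 3), with a replicate block, and without each library in turn. Figures were drawn with matplotlib 3.10.9.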

Additional observations from a re-analysis of the deposited data

How the results depend on the processing

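Quantile normalization gave 1 called mRNA and 211 bounded lncRNAs of mean FPKM 10 or more, and the fit of only days 16 and 8 gave 217 bounded lncRNAs. That fit without day 8 replicate 3 gave 4 called mRNAs, 230 bounded lncRNAs, and 331 mRNAs and 74 lncRNAs without overlap at 2-fold. Leaving out 1 library at a time gave 0 to 28 called mRNAs, 2 to 11 called lncRNAs, 5262 to 6574 bounded mRNAs, 0 to 186 bounded lncRNAs and, without overlap at 2-fold, 79 to 331 mRNAs and 23 to 74 lncRNAs. The cause was not tested. Leaving out a library also makes a smaller group. Same-numbered libraries did not deviate together (r of -0.080, 0.14 and -0.028 over mRNAs and -0.16, -0.049 and -0.090 over lncRNAs, across transcripts), and the replicate block gave 0 called mRNAs, 4 called lncRNAs, 6199 bounded mRNAs and 122 bounded lncRNAs. Of 1113 values for 53 named transcripts, 1089 kept their direction where called and their side of the threshold, 11 passed it newly, 13 no longer passed and 0 reversed a call; 32 values in 16 uncalled transcripts changed sign. Read depth behind single values is unknown.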
